A study of Capra hircus with 6 samples.

Results

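Collagen genes were examined as a family in stem cells from goat fat, stromal cells that can turn into fat cells. The members were every row of the deposited tables whose symbol is COL, a number, A and a number, which gave 40 of 16262 gene rows. COL9A1, COL22A1, COL6A4, COL6A5 and COL25A1 were not analysed here. There were 3 control libraries of wild-type (WT) genotype and 3 libraries of cells overexpressing TAZ, the Hippo pathway coactivator encoded by WWTR1, and all 6 were labelled as cells under adipogenic differentiation. The series' design text calls the overexpressing cells a cell line, and its title names TNF-α, which the sample labels do not. The labels name neither the vector or promoter behind the overexpression, nor an empty-vector control, nor how many clones or animals the cells came from. Nothing says that replicates were separate cultures, so each p-value reflects library-to-library spread alone, possibly technical. WWTR1 was at 30.2, 29.9 and 35.9 FPKM (reads scaled by gene length and library total) across the controls, given here and throughout in the order of their replicate numbers, and at 84.6, 118 and 84.2 FPKM with TAZ, 2.99 times as high. Its reads could come from the introduced construct or from the cell's own gene, which cannot be told apart here.

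Collagens are extracellular proteins built of 3 chains wound into a triple helix, and each chain has its own gene. Fibrillar collagens form the load-bearing fibres of connective tissue, and basement membrane collagen IV forms a sheet-like network under epithelia and around fat cells. FACIT collagens sit on the surface of fibrils, beaded filament collagen VI forms microfibrils around cells, and transmembrane collagens span the plasma membrane. Smaller classes are the hexagonal networks of collagens VIII and X, the multiplexins XV and XVIII, and the anchoring fibrils of collagen VII. In fat tissue, stromal cells are a main source of collagens I, III and VI.

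Library totals, read from the spacing of low FPKM values, ran from 33871397 to 37705644 reads. Of the 7 stromal markers in a list of cell type markers, all passed the filter on low values given below, and PDGFRA, a stromal receptor gene, stood at 147 to 205 FPKM in the controls and 158 to 213 FPKM with TAZ. The endothelial list (PECAM1, CDH5, VWF, KDR and TEK) and the epithelial list (EPCAM, CDH1, KRT8 and KRT18) had 0 members past the filter, and the leukocyte marker PTPRC was at 0 in every library. Of the 5 adipocyte markers 1 passed, CIDEC, at 16.8 to 19.3 FPKM in the controls and 16.6 to 19.1 FPKM with TAZ. It was not called and made up nearly all of the sum of its list. PPARG, a nuclear receptor that drives fat cell formation, was at 0.142 FPKM or below in every library. ACTA2, a marker of contractile stromal cells, stood at 334 to 559 FPKM in the controls and 151 to 227 FPKM with TAZ. It was the 1 of 4 pericyte and smooth muscle markers past the filter and made up nearly all of their sum, while RGS5, which defines pericytes, was at 0.016 FPKM or below throughout. Stromal markers moved both ways: PDGFRB and CD44 were higher and THY1, ENG and VIM lower with TAZ. The stromal list summed to 12884 to 13973 FPKM in the controls and 10816 to 11394 FPKM with TAZ, and VIM alone, at 12098 to 13222 and 10031 to 10642 FPKM, made up nearly all of it. The leukocyte list summed to 12.9 to 15.8 FPKM in the controls and 26.6 to 27.7 FPKM with TAZ. Of its 2 members past the filter, CD14 was higher with TAZ (8.17 to 10.9 against 23.8 to 24.5 FPKM) and CD68 lower. The part of these shifts in the collagen values below was not tested. Fewer cells of a type and less RNA per cell cannot be told apart in such bulk libraries.

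The summed level of the family overlapped between the groups, and single members changed in both directions. Collagen reads made up 8.25% ± 0.194 (SD, n = 3) of all reads in the controls and 8.52% ± 0.315 (SD, n = 3) with TAZ. The summed collagen level was 14343, 14602 and 14876 FPKM in the controls and 15341, 14531 and 15676 FPKM with TAZ, and the groups overlapped. Of the 20 genes of highest mean FPKM in the tables, 3 were collagens, namely COL1A1, COL3A1 and COL1A2, in that order. Of the 40 members, 21 passed the filter of 1 FPKM or more in at least 3 libraries. Of these 21, 5 were higher and 5 lower with TAZ at an adjusted p under 0.05 (limma on log2(FPKM + 1), Benjamini-Hochberg over all genes), against 37.9% of all 10750 genes called in either direction, 15.7% higher and 22.1% lower. The groups did not overlap for 13 of the 21, against 48.4% of all genes tested. The members' median log2 fold change was -0.047, and that of all genes tested was -0.050.

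Of the 21 members, 3 reached 1 FPKM in the libraries of 1 group only, so that these had to differ in order to be tested. For this reason, and because log2(FPKM + 1) compresses low values, the recovered reads were also fitted with limma's voom. The filter there was a mean of 10 reads or more over all 6 libraries together. COL9A3, with at most 5 reads in any control, reached that mean only through the TAZ libraries. It too had to differ in order to be tested. Under that filter 28 collagens were tested, 7 were higher and 7 lower, against 36.6% of 12565 genes called in either direction, 15.6% higher and 21% lower. The 14 include all 10 above and 4 scarce members, COL18A1, COL9A3, COL21A1 and COL23A1. Here the median of the members was -0.009 and that of all genes -0.060. The remaining 12 members had at most 23 reads over all 6 libraries, as recovered. For members with few values above 0, here and below, the read numbers are the smallest possible.

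**Figure D1:**
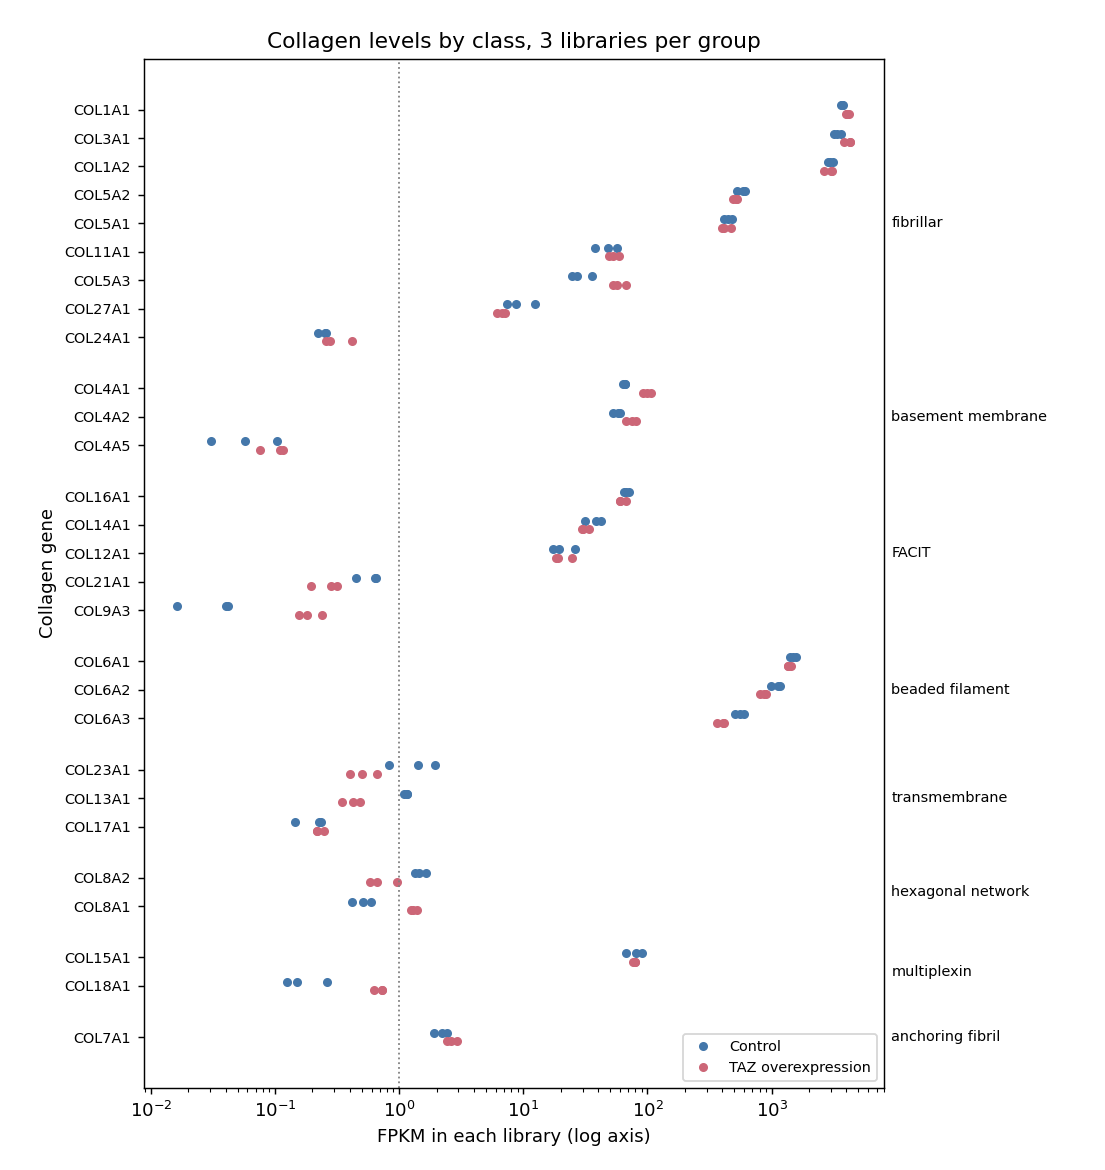
FPKM of the 28 collagen genes with a mean of 10 reads or more, on a log axis, in each of the 3 control and 3 TAZ libraries, ordered by class. The dotted line marks 1 FPKM. Levels span from under 0.1 FPKM for COL9A3 in the controls to 4235 FPKM for COL1A1 in TAZ replicate 3. Examples of genes whose groups do not overlap are COL5A3, COL4A1, COL13A1, COL8A1, COL8A2, COL18A1 and COL9A3. Others include COL3A1, COL4A2, COL6A2 and COL6A3. The groups did not overlap for 47.4% of all genes with a mean of 10 reads or more.

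Fibrillar collagens carried most of the collagen RNA in both groups. Their summed level was 10704, 11159 and 11549 FPKM in the controls and 12406, 11520 and 12601 FPKM with TAZ, a ratio of means of 1.09 with overlapping groups. They made up 76.2% of the summed collagen FPKM in the controls and 80.2% with TAZ. Among 11 fibrillar genes, 8 passed the filter, of which 2 rose, COL3A1 and COL5A3, 1 fell, COL27A1, and 5 did not pass the test, a share called like the 37.9% of all genes tested. Their median log2 fold change was 0.056.

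COL1A1, which encodes the alpha1 chain of type I collagen, was the highest collagen at 3589.7, 3726 and 3707 FPKM in the controls. With TAZ it read 4082, 3986 and 4235 FPKM, each above every control. The difference did not pass (log2 fold change 0.16, 95% interval -0.02 to 0.34, limma adjusted p = 0.153). It passed when the libraries were rescaled without the 50 most abundant genes or without the collagens (limma adjusted p = 0.0246 and 0.0207), and under quantile normalization its log2 fold change was 0. COL1A2, the alpha2 chain of the same trimer, stood at 2823, 2966 and 3121 FPKM in the controls and 2982, 2619 and 3037 FPKM with TAZ. Its groups overlapped, at a log2 fold change of -0.05 (95% interval -0.24 to 0.15), and it passed as lower under quantile normalization (-0.24, limma adjusted p = 0.00439). Quantile normalization sets each value by its rank within the library. COL1A1 and COL1A2 rank 3 and 8 by mean FPKM, so their values under it reflect order among the most abundant genes.

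COL3A1, whose product forms type III collagen of compliant tissues, was at 3202, 3353 and 3600.2 FPKM in the controls and rose to 4304, 3831 and 4286 FPKM with TAZ. The lowest TAZ library lay above the highest control, and the change was small (log2 fold change 0.29, SE 0.091, limma adjusted p = 0.0235). The limma call was lost when control replicate 1 or either of TAZ replicates 1 and 3 was left out, at adjusted p-values of 0.118, 0.0963 and 0.082, and with no filter on low values (0.149). With voom on the recovered reads it held in each of the 6 fits that left out 1 library, at adjusted p-values up to 0.0425.

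Type V and XI collagens, the minor fibrillar collagens that start and limit fibril growth, differed from chain to chain. COL5A3, which encodes the scarcest of the type V chains here, stood at 35.5, 24.9 and 27.0 FPKM in the controls and at 52.9, 67.7 and 56.5 FPKM with TAZ. It was 2.03 times as high (29.2 ± 5.65 against 59.0 ± 7.75 FPKM, SD, n = 3; log2 fold change 1.002, SE 0.128, limma adjusted p = 4.54e-05), and no TAZ library fell within the control range. COL5A1, the alpha1(V) chain, stood at 477, 442 and 413 FPKM in the controls and 397, 469.9 and 415 FPKM with TAZ. Its groups overlapped (log2 fold change -0.06, 95% interval -0.25 to 0.14). COL5A2, the alpha2(V) chain, was at 527, 590.3 and 616 FPKM in the controls and 523, 490.002 and 513 FPKM with TAZ. Every TAZ value lay below every control, though TAZ replicate 1 came close to control replicate 1, and the difference did not pass (log2 fold change -0.18, limma adjusted p = 0.114). Without control replicate 1 it passed in the read-based voom fit (adjusted p = 0.0405). COL11A1, a type XI chain best known from cartilage, stood at 37.5, 48.2 and 56.5 FPKM in the controls and 58.9, 48.8 and 52.9 FPKM with TAZ. It did not pass (log2 fold change 0.19, 95% interval -0.09 to 0.47), except without control replicate 3, the highest control (0.32, limma adjusted p = 0.0355). The length behind the COL5A1 values, as recovered, was 3678 bases, against 5410 to 7906 bases for the other 7 fibrillar genes tested, so its level relative to those depends on that annotation.

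COL27A1, a fibrillar collagen of cartilage matrix, fell from 12.4, 7.38 and 8.77 FPKM in the controls to 6.70, 7.15 and 6.14 FPKM with TAZ. The group ranges were close, since 7.38 and 7.15 FPKM neighbour each other, and control replicate 1 stood well above the rest. The fall (log2 fold change -0.43, SE 0.144, limma adjusted p = 0.0323) was not past the threshold without control replicate 1 (-0.24, adjusted p = 0.138), TAZ replicate 1 (adjusted p = 0.0516) or TAZ replicate 3 (adjusted p = 0.089), and also not under median-ratio scaling (adjusted p = 0.0529), the rescalings without the 50 top genes or without the collagens (adjusted p = 0.0678 and 0.0715) or with no filter (adjusted p = 0.148). With voom it passed (adjusted p = 0.0226), but not when control replicate 1 or TAZ replicate 3 was left out, at adjusted p-values up to 0.098. COL24A1, expressed mainly in bone and cornea, had 59, 50 and 60 reads in the controls and 95, 65 and 69 reads with TAZ and did not pass (voom log2 fold change 0.34, 95% interval -0.20 to 0.88). COL2A1, the main collagen of cartilage, had 2 reads over the controls and 1 with TAZ, and COL11A2, a further type XI chain, had 15 and 8. SOX9, a regulator of cartilage genes, was lower with TAZ, and the chondrocyte list that holds it, with 1 of 4 members past the filter, summed to 2.58 to 3.83 FPKM in the controls and 1.42 to 1.90 FPKM with TAZ; its part in the values of the cartilage collagens was not tested.

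The main chains of basement membrane collagen rose. COL4A1 and COL4A2, which encode the alpha1 and alpha2 chains of the common type IV trimer, were the 2 of 6 genes of this class past the filter, and both were higher in every TAZ library than in any control. Of all genes tested, 15.7% were called higher, and the groups did not overlap for 48.4%. COL4A1 was at 66.2, 65.8 and 63.5 FPKM in the controls and 91.7, 107 and 98.7 FPKM with TAZ. It rose 1.52 times (65.2 ± 1.48 to 99.0 ± 7.49 FPKM, SD, n = 3; log2 fold change 0.59, SE 0.083, limma adjusted p = 9.96e-05). COL4A2 was at 59.9, 57.5 and 52.4 FPKM in the controls and 66.6, 80.2 and 75.3 FPKM with TAZ. It rose 1.31 times (log2 fold change 0.38, SE 0.093, limma adjusted p = 0.00593). The 2 genes are neighbours with 0 protein-coding genes between them in RefSeq's gene order (ARS1.2). The other chains, which replace these in kidney, lung and smooth muscle membranes, were scarce: COL4A5 had 7, 23 and 13 reads in the controls and 17, 27 and 28 reads with TAZ (voom adjusted p = 0.173), and COL4A3, COL4A4 and COL4A6 had 0 or 1 read in each library. The summed class level was 126, 123 and 116 FPKM in the controls and 158, 187 and 174 FPKM with TAZ, a ratio of means of 1.42, and no library of one group fell in the range of the other.

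Of the chains of beaded filament collagen VI, COL6A2 and COL6A3 fell and the most abundant, COL6A1, did not pass the test. The 3 classical chains, encoded by COL6A1, COL6A2 and COL6A3 and assembled as 1 heterotrimer, held 21.5% of the summed collagen FPKM in the controls and 17.4% with TAZ. COL6A3, the large alpha3 chain from whose end the adipokine endotrophin is released, was at 560.3, 511 and 597 FPKM in the controls and fell to 408, 413 and 364 FPKM with TAZ. That was 0.710 times the control level (556 ± 43.4 to 395 ± 27.3 FPKM, SD, n = 3; log2 fold change -0.49, SE 0.089, limma adjusted p = 0.000805). COL6A2 was at 1159, 1127 and 992 FPKM in the controls and fell to 809, 872 and 897 FPKM with TAZ (log2 fold change -0.34, SE 0.089, limma adjusted p = 0.00832). For both genes the highest TAZ library lay below the lowest control. Of all genes tested, 22.1% were called lower, and the groups did not overlap for 48.4%. COL6A1 was at 1572, 1485 and 1402 FPKM in the controls and 1355, 1347 and 1439 FPKM with TAZ, which overlap, and did not pass (log2 fold change -0.11, 95% interval -0.29 to 0.07). COL6A6, an alternative chain of the trimer, had 1 read in all. COL6A1 and COL6A2 are also direct neighbours in the RefSeq order, as are COL3A1 and COL5A2. The summed class level was 3291, 3123 and 2991 FPKM in the controls and 2573, 2632 and 2699 FPKM with TAZ, a ratio of means of 0.84 (3135 ± 150.2 against 2635 ± 63.4 FPKM, SD, n = 3). Under quantile normalization that ratio was 0.915.

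**Figure D2:**
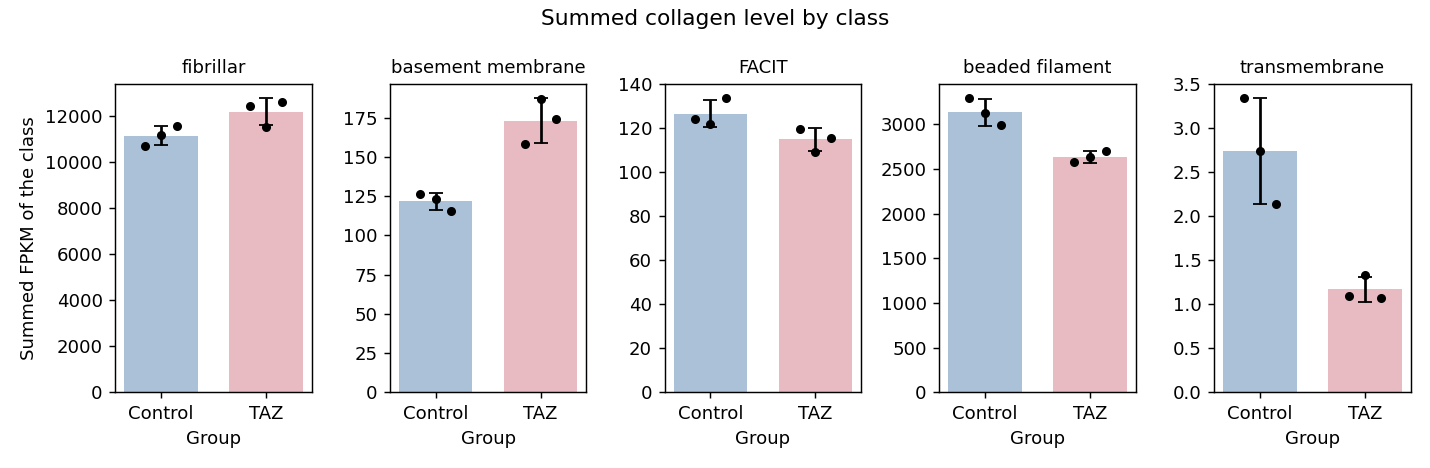
Summed FPKM of 5 structural classes (fibrillar, basement membrane, FACIT, beaded filament and transmembrane) in each library. Bars are group means, error bars the SD of 3 libraries, points the libraries, and each panel has its own axis from 0. The ratio of means was 1.42 for the basement membrane class, 0.84 for the beaded filament class and 0.426 for the transmembrane class, while the fibrillar groups overlap at a ratio of 1.09. Under quantile normalization the beaded filament ratio was 0.915 and the fibrillar ratio 1.005.

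Of 8 FACIT genes, the 3 that passed the filter were not called, and 2 scarce ones changed in opposite directions in the read-based fit. In that fit 36.6% of all 12565 genes tested were called in either direction. The summed class level was 124, 122 and 133 FPKM in the controls and 119, 109 and 116 FPKM with TAZ, a ratio of means of 0.907. COL16A1, a fibril-associated collagen of many connective tissues, was at 67.8, 70.6 and 64.6 FPKM in the controls and 60.4, 60.1 and 66.7 FPKM with TAZ, with overlapping groups (log2 fold change -0.12, 95% interval -0.29 to 0.06). COL14A1, which binds fibrils in skin and tendon, was at 38.4, 31.3 and 42.3 FPKM in the controls and 33.6, 30.4 and 29.5 FPKM with TAZ (log2 fold change -0.24, 95% interval -0.48 to -0.01, limma adjusted p = 0.0957). Without control replicate 2, its lowest control, the limma adjusted p was 0.0162. COL12A1, found on fibrils under tension, was at 17.3, 19.6 and 25.9 FPKM in the controls and 24.8, 18.4 and 18.9 FPKM with TAZ, so that each group held 1 library near 25 FPKM (log2 fold change -0.01, 95% interval -0.32 to 0.30).

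COL9A3, a type IX collagen chain of cartilage fibrils, had 5, 5 and 2 reads in the controls and 22, 21 and 31 reads with TAZ. It rose in the read-based fit (voom log2 fold change 2.48, SE 0.469, adjusted p = 0.000924), at a level that was still low, 0.192 ± 0.041 FPKM (SD, n = 3) with TAZ. Its partner chain COL9A2 had 3, 1 and 2 control reads and 0, 0 and 1 with TAZ, and 0 reads in a library leave room for up to 3. COL21A1, a FACIT of blood vessel walls, had 93, 63 and 94 reads in the controls and fell to 45, 31 and 44 reads with TAZ (voom log2 fold change -1.12, SE 0.276, adjusted p = 0.00558). The highest TAZ library lay below the lowest control in FPKM too, at 0.316 and 0.445 FPKM. COL19A1 had 1 read and COL20A1 had 0 reads over all libraries, so that no difference in them was detectable at this depth.

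Transmembrane collagens were scarce and 2 of 3 fell in the read-based fit, in which 21% of all 12565 genes tested were called lower. COL13A1, a cell surface collagen of adhesion sites, was at 1.16, 1.09 and 1.16 FPKM in the controls and 0.480, 0.425 and 0.349 FPKM with TAZ, and fell by 1.45 on the log2 scale of the read-based fit (SE 0.221, voom adjusted p = 0.000153). It is 1 of the 3 members that passed the FPKM filter through 1 group only, as are COL8A1 and COL8A2, so the read-based fit is given for these. COL23A1 had 210, 148 and 88 reads in the controls and 42, 77 and 57 reads with TAZ. It fell in the read-based fit (voom log2 fold change -1.35, SE 0.323, adjusted p = 0.00482), and its controls were spread more than 2-fold. COL17A1, the hemidesmosome collagen of epithelia, had 29 to 46 reads in the controls and 43 to 54 reads with TAZ and did not pass (voom adjusted p = 0.623).

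In the smaller classes, both chains of type VIII collagen changed, in opposite directions. COL8A1 and COL8A2 encode the chains of type VIII collagen, a short-chain network collagen of vessel walls and corneal membranes. COL8A1 rose from 0.590, 0.414 and 0.515 FPKM in the controls to 1.28, 1.39 and 1.26 FPKM with TAZ (voom log2 fold change 1.38, SE 0.182, adjusted p = 4.11e-05). COL8A2 fell from 1.35, 1.65 and 1.45 FPKM to 0.582, 0.658 and 0.967 FPKM (voom log2 fold change -1.03, SE 0.196, adjusted p = 0.000927). COL8A2 was the higher of the pair in every control and COL8A1 in every TAZ library, and the ratio of COL8A1 to COL8A2, looked at after these values were seen, went from 0.250 to 0.437 in the controls to 1.30 to 2.21 with TAZ. COL10A1, the collagen of hypertrophic cartilage, had 1 read in all.

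COL18A1, a multiplexin of basement membranes from which endostatin is cut, had 47, 26 and 22 reads in the controls and 108, 141 and 137 reads with TAZ. It rose 3.86 times in FPKM, from 0.180 ± 0.074 to 0.695 ± 0.063 (SD, n = 3; voom log2 fold change 2.004, SE 0.280, adjusted p = 7.09e-05). COL15A1, the other multiplexin, stood at 89.6, 67.7 and 80.5 FPKM in the controls and 78.9, 76.3 and 79.1 FPKM with TAZ (log2 fold change -0.01, 95% interval -0.23 to 0.20). COL7A1, the anchoring fibril collagen, was at 2.42, 2.21 and 1.90 FPKM in the controls and 2.43, 2.93 and 2.63 FPKM with TAZ and did not pass (limma adjusted p = 0.132), except without control replicate 1 in the read-based fit (voom adjusted p = 0.0459). COL26A1 and COL28A1, of no class above, had 0 to 2 reads in each library.

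**Figure D3:**
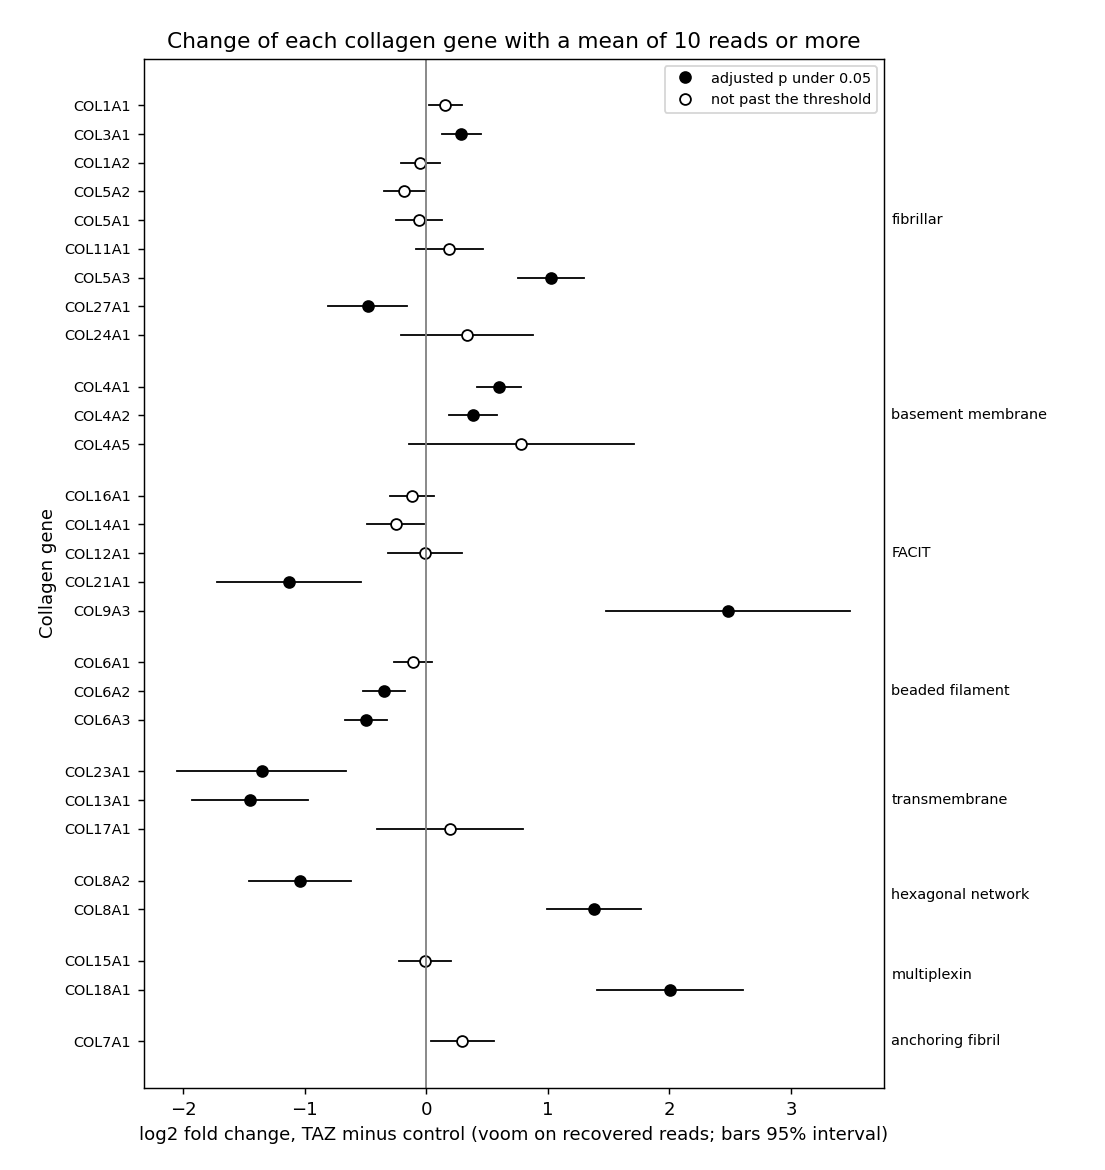
log2 fold change of each collagen gene with a mean of 10 reads or more, TAZ overexpression minus control, from voom on the recovered reads, with its 95% interval, ordered by class. Filled points passed an adjusted p of 0.05, 7 to the right of 0 and 7 to the left. COL9A3 lies farthest right at 2.48 and COL13A1 farthest left at -1.45, while the fibrillar genes other than COL5A3 lie between -0.48 and 0.34. COL9A3 met the read filter only through the TAZ libraries.

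Partner chains that are wound into 1 trimer were compared by their ratio, since trimers need them in set numbers. The FPKM ratio was taken in each library for 5 pairs of partner chains. COL1A1 to COL1A2 was 1.27, 1.26 and 1.19 in the controls and 1.37, 1.52 and 1.39 with TAZ. COL4A1 to COL4A2 was 1.11, 1.14 and 1.21 in the controls and 1.38, 1.33 and 1.31 with TAZ. COL6A1 to COL6A2 was 1.36, 1.32 and 1.41 in the controls and 1.67, 1.55 and 1.60 with TAZ. In these 3 pairs every TAZ ratio lay above every control, so that RNA of the alpha1 chain stood higher relative to its partner. The groups also did not overlap for 48.4% of single genes tested, and no such share was computed for other gene pairs. An exact permutation test, two-sided, gave p = 0.1 for each of these 3 pairs (Benjamini-Hochberg 0.167 over the 5 pairs). That p is the smallest that 3 against 3 allows, so the test cannot pass 0.05 here. The ratios of COL6A3 to COL6A2 (0.513 ± 0.079 against 0.461 ± 0.051, SD, n = 3; exact p = 0.5) and of COL5A1 to COL5A2 (0.775 ± 0.119 against 0.842 ± 0.104, SD, n = 3; exact p = 0.4) overlapped between the groups. A ratio within a library does not change with the scaling of that library, and its level depends on the gene lengths the authors used.

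**Figure D4:**
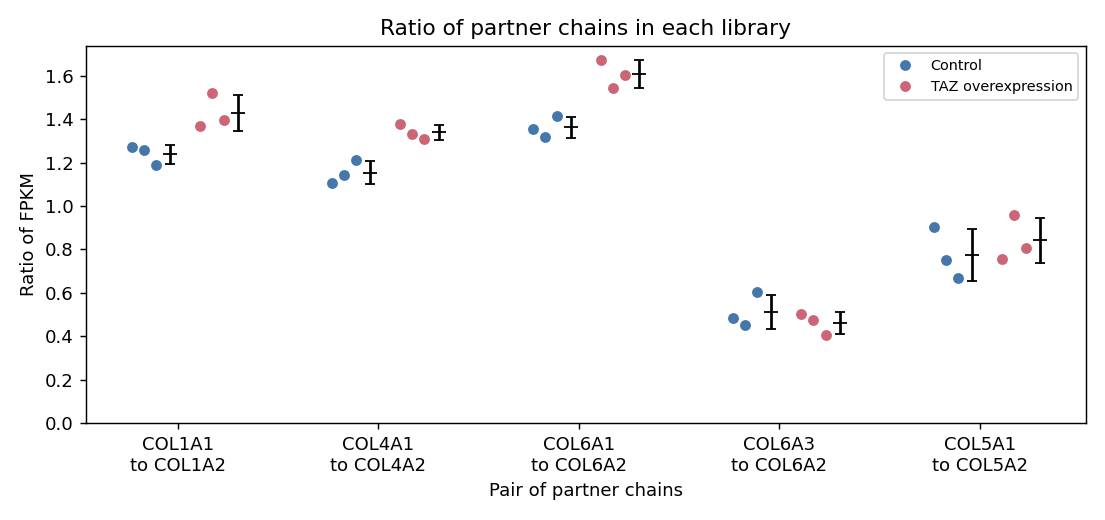
Ratio of FPKM for 5 pairs of partner chains in each library, with the mean and SD of 3 libraries beside the points. For COL1A1 to COL1A2, COL4A1 to COL4A2 and COL6A1 to COL6A2 the TAZ libraries lie above the controls, and for the other 2 pairs the groups overlap.

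Genes that modify, export, process, break down or bind collagen moved in both directions. Their lists were drawn up for this family with earlier results of these data known. How far that choice shaped the counts was not tested. Their counts are to be read against the 37.9% of all genes tested that were called, 15.7% higher and 22.1% lower, and against the median of all genes, -0.050. Of 12 tested prolyl and lysyl hydroxylases, their partners and glycosyltransferases 3 rose and 4 fell (median log2 fold change -0.073). P4HA1, a catalytic subunit of prolyl 4-hydroxylase, rose from 69.4 ± 11.1 to 120.2 ± 12.6 FPKM (SD, n = 3), and COLGALT1, which adds galactose to hydroxylysine, from 109 ± 6.12 to 142 ± 8.09 FPKM. CRTAP, a partner of prolyl 3-hydroxylase, fell from 66.6 ± 1.59 to 47.8 ± 2.22 FPKM, and P3H4, a partner of lysyl hydroxylase, from 210.2 ± 11.9 to 160.3 ± 17.1. Of 15 genes of procollagen folding and export 1 rose and 4 fell, near the 37.9% of all genes (median -0.059), SEC23A, a coat protein of export vesicles, being the 1 that rose (57.8 ± 10.4 to 73.2 ± 9.53 FPKM, limma adjusted p = 0.0443). The SEC23A groups overlapped, with control replicate 3 at 69.7 FPKM above TAZ replicates 2 and 3 at 67.2 and 68.2 FPKM. FKBP10, a collagen-binding prolyl isomerase of the endoplasmic reticulum, fell from 353 ± 17.6 to 285 ± 9.96 FPKM, and FKBP7 from 59.9 ± 3.43 to 42.9 ± 4.36 FPKM.

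Of 11 tested genes of propeptide removal and crosslinking 3 rose and 5 fell, beside 15.7% and 22.1% of all genes (median -0.25). LOXL2, a lysyl oxidase that crosslinks collagen IV among others, rose from 152 ± 20.6 to 300.1 ± 7.50 FPKM (log2 fold change 0.98, limma adjusted p = 5.14e-06), and BMP1, which removes the C-terminal propeptides of fibrillar procollagens, from 87.2 ± 6.85 to 119 ± 9.96 FPKM. ADAMTS14, an N-terminal procollagen peptidase, fell from 3.75 ± 0.637 to 0.925 ± 0.066 FPKM, and TLL2, a relative of BMP1, from 23.7 ± 2.87 to 14.999 ± 0.187 FPKM. The list of breakdown and uptake had 7 of 12 tested members higher and 3 lower, beside the same 15.7% and 22.1% (median 0.31). MMP1, the interstitial collagenase that cuts collagens I and III, rose from 50.6 ± 18.3 to 201 ± 5.84 FPKM (log2 fold change 2.04, limma adjusted p = 3.14e-06), and CTSL, a lysosomal protease, from 3.06 ± 0.596 to 11.6 ± 0.382 FPKM. FAP, a serine protease that acts on gelatin, fell from 31.5 ± 6.70 to 14.96 ± 2.04 FPKM, and PEPD, which frees proline from collagen dipeptides, from 49.4 ± 2.10 to 31.1 ± 1.58 FPKM. Among 11 receptors and binding proteins 3 rose and 3 fell, beside 37.9% of all genes in either direction (median 0.013). The collagen-binding integrin gene ITGA11 fell from 8.33 ± 2.35 to 2.82 ± 0.324 FPKM, while DDR2, a receptor kinase for fibrillar collagen, rose from 8.81 ± 2.11 to 13.8 ± 3.12 FPKM (limma adjusted p = 0.0124). The DDR2 groups overlapped, with control replicate 3 at 11.2 FPKM above TAZ replicate 3 at 10.5 FPKM. The small proteoglycans that bind fibrils went apart, DCN rising from 1430 ± 121.8 to 2188 ± 270.5 FPKM and BGN falling from 383 ± 26.7 to 236 ± 8.57 FPKM.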

How the data were processed

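Total RNA was taken up in TRIzol and made into libraries with the VAHTS Universal V6 kit, per the labels' protocols. The submitters' processing notes name fastp, HISAT2 and HTSeq. The sources used here do not give their versions, the build, strandedness or the handling of multi-mapping reads. Overlapping, antisense and paralogous genes are therefore uncertain, and no coordinates are given. The authors deposited FPKM values in 1 table per group, per the file headers. Of 16285 rows, 23 with a date for a symbol were left out; all 16262 others matched RefSeq symbols (ARS1.2). No sequences were used.

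An FPKM value is a read number divided by gene length and library total, so the steps of low values give both. Whole reads, within 0.005 reads plus the rounding of large values, came out for 99.99% of rows with a value above 0, and they summed to 99.67% to 99.71% of the totals. The smallest length that gave whole reads was taken, and a row with few values above 0 nearly always has one. Read numbers of such rows are therefore the smallest possible. The limit of 3 reads for a count of 0 covers counting error only, and the 95% intervals of fold changes come from the fits. No 2 libraries of a group agreed within sampling noise (chi-square per degree of freedom 18.29 to 28.6). limma 3.58.1 in R 4.3.3 compared the groups, defined by sample titles, on log2(FPKM + 1) with a mean-variance trend, two-sided, adjusted over 10750 genes, and was tested on simulated data. Fold changes on that scale understate low genes; times as high means a ratio of mean FPKM. Collagens past the threshold and the 10 highest are given by library, and of each pathway list the 2 called genes of lowest p in each direction. The members and lists were chosen with earlier results of these data known. A voom fit of the recovered reads was planned; its filter of 10 reads and its repeats without each library were chosen after seeing the data. Other alternatives were pseudocounts, filters, 4 scalings, no trend, robust variance, a replicate block and leaving out each library.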

Additional observations from a re-analysis of the deposited data

How the results depend on the processing

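The 5 collagens called higher and 5 called lower became 4 to 6 and 4 to 6 when 1 library was left out, and 4 and 5 with the replicate number as a replicate block. Same-numbered libraries did not deviate together from their group means (r = -0.436, -0.112 and -0.403). Deviations from a mean of 3 libraries balance within each group, so these values cannot decide whether cultures were paired by number. No library correlated best with its own number: the highest values were 0.691 for control 3 with TAZ 1, 0.552 for control 2 with TAZ 3 and 0.534 for control 1 with TAZ 2, and this shared variation was not modelled. A mean of 5 FPKM or more left 3 lower, since fewer genes were tested. Calls over the whole table, 1693 higher and 2381 lower, became 2030 and 1784 under median-ratio scaling. Higher calls then outnumbered lower calls. Quantile normalization moved the summed fibrillar ratio from 1.09 to 1.005 and the beaded filament ratio from 0.84 to 0.915; the cause was not tested. Directions turned for uncalled genes at log2 fold changes near 0. Under median-ratio scaling COL12A1, COL15A1 and COL1A2 were at 0.047, 0.046 and 0.011, and under quantile normalization COL12A1, COL15A1, COL1A1 and COL6A1 were at 0.001, 0.0, -0.0 and 0.02. Rescaling without the top 50 genes gave 0.039, 0.037 and 0.002 for COL12A1, COL15A1 and COL1A2, and rescaling without the collagens 0.036 and 0.034 for COL12A1 and COL15A1. Leaving out 1 library gave -0.139 to 0.151 for COL12A1, -0.118 to 0.081 for COL15A1 and -0.087 to 0.02 for COL1A2. Of 395 pairs of a collagen and an alternative, 359 kept direction and side of the threshold. With the replicate block COL3A1 was not past it (adjusted p = 0.0798).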
